A study of Danio rerio with 15 samples.

Results

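The genes described here are the zebrafish genes for autophagy and the lysosome in brain RNA of fish exposed to dibromoacetonitrile (DBAN), a disinfection by-product of drinking water. They were chosen by symbol: subunits of the vacuolar proton pump (symbols starting atp6v0 or atp6v1), numbered atg genes, lamp1 and lamp2 genes, cathepsins, gabarap and map1lc3 genes, sqstm1, and the asah1 genes. Of 14971 genes in the tables, 58 matched, and the 55 with a mean of at least 1 CPM over the 15 libraries are the members. CPM are the counts scaled to library depth with TMM factors. Just above that limit were ctsbb at a mean of 1.03 CPM and ctsll at 1.82 CPM. Below it were map1lc3c at 0.242 CPM, ctsl.1 at 0.133 CPM and ctslb at 0.0193 CPM, and these are not members.

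By role, the 55 members are 8 subunits of the membrane sector of the pump (V0), 11 of its cytosolic sector (V1), 12 core ATG genes, 4 LC3 and GABARAP genes, sqstm1, 3 LAMP genes, 14 cathepsins and 2 acid ceramidase genes. Adult fish of both sexes were kept in water with DBAN for 56 days, and poly(A) RNA of the brain was then sequenced. Females received 0, 40 or 200 µg/L and males 0 or 40 µg/L, which makes 5 groups of 3 libraries each, and the fish at 0 were the blank controls of their sex. No strain, age or allele is given. How many fish went into a library is not stated, so every p-value rests on the variation from library to library, part of which may be technical.

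Autophagy encloses cell material in a double membrane and delivers it to the lysosome, where acid hydrolases break it down. An ULK kinase complex starts the membrane, a pair of ubiquitin-like conjugation systems couples LC3 and GABARAP proteins to its lipid, and cargo receptors bind these proteins. The vacuolar proton pump (V-ATPase) acidifies the lysosome, and in neurons it also powers the loading of synaptic vesicles. Gene roles are given below as known from yeast and mammals.

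Library totals ranged from 10488947 to 49388334 counts. In females the depth of the 3 groups did not overlap: controls had 18365050 to 22630829 counts, fish at 40 µg/L 33198859 to 49388334 and fish at 200 µg/L 10488947 to 17684130. The count that a rare gene takes when it is seen, a measure of how few molecules a library holds, had medians of 8 to 11 in female and 8 to 9 in male controls. It was 39, 40.5 and 132 in the 3 exposed male libraries and 28, 8 and 35 in females at 40 µg/L (replicates 1, 2 and 3). In females at 200 µg/L it was 10, 17 and 8. A floor of 3 times this median was used for values near 0. It corresponds to 4.55, 2.70 and 11.996 CPM in the exposed males, where 7, 5 and 17 members lay under it. In female replicate 2 at 200 µg/L the floor was 4.78 CPM, with 7 members under it. The neuronal marker snap25a was at 1994 to 4226 CPM over the 15 libraries, as a check of the labelled tissue.

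**Figure D1:**
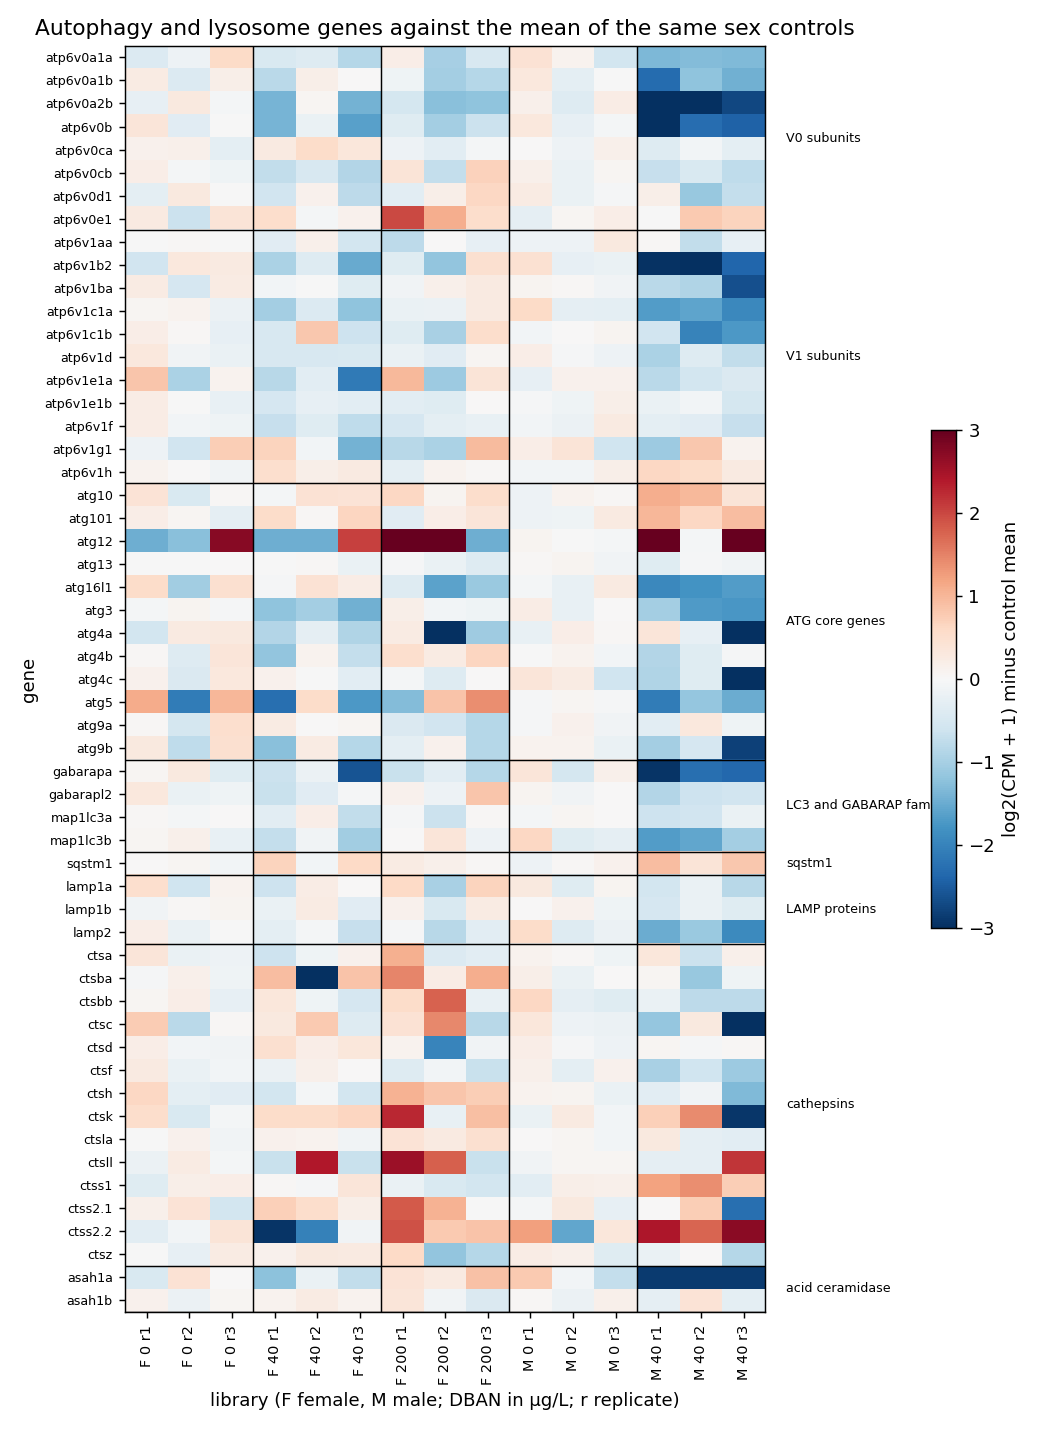
Each cell is a member in a library, coloured by log2(CPM + 1) minus the mean of the controls of the same sex, with colours limited to -3 and 3. The columns of the exposed males are blue in all 3 libraries in atp6v0b, atp6v1b2, gabarapa, atp6v0a2b and asah1a, and sqstm1 and atg101 are red in all 3. Deep blue also occurs in single libraries, such as ctsba in female replicate 2 at 40 µg/L.

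In males at 40 µg/L, 16 of 54 tested members were called against control, 14 lower and 2 higher (edgeR quasi-likelihood test, adjusted p under 0.05 over all 12454 genes tested). This is 29.6% of the members, against 15.6% of all genes. Among all genes calls were 8.38% higher and 7.25% lower. The lower members came from the pump, the conjugation machinery, the LC3 and GABARAP family, lamp2, ctsf and asah1a, and the higher members were the receptor sqstm1 and the kinase complex gene atg101. The member that was not tested, atg12, was at 0.102, 0.0411 and 0 CPM in male controls and 11.5, 0 and 16.8 CPM in exposed males, with 1 of the 3 exposed libraries at 0. The log2 fold change of the members had a median of -0.50, or -0.48 with asah1a at no change, beside -0.16 over all genes.

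Of 19 V-ATPase subunits, 5 fell in exposed males, none rose, and 16 had a negative log2 fold change, as did 55.5% of all genes. The subunit atp6v0b, the c'' proteolipid of the rotating ring, was at 159.9, 108 and 123 CPM in the 3 male controls and at 13.5, 25.6 and 23.1 CPM in the 3 exposed males. Its lowest control was thus over any exposed library, and it fell 6.27-fold (log2 fold change -2.65 ± 0.31 SE, edgeR adjusted p = 0.00858). The V1 subunit B gene atp6v1b2, whose protein borders the ATP-binding site, was at 403, 244 and 254 CPM in controls and 36.6, 17.8 and 55.4 CPM in exposed males. It fell 8.23-fold (-3.04 ± 0.45, adjusted p = 0.0114), and the groups did not overlap.

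The C subunit gene atp6v1c1a, whose protein joins the sectors, was at 242, 134 and 132 CPM in male controls and at 50.0, 53.3 and 41.8 CPM in exposed males. It fell 3.51-fold (-1.81 ± 0.29, adjusted p = 0.0131). The V0 a-subunit gene atp6v0a1b was at 358, 235 and 283 CPM in controls and 57.3, 123 and 105 CPM in exposed males. Its 3.06-fold fall (-1.61 ± 0.32, adjusted p = 0.0225) left no overlap. The c-subunit gene atp6v0cb was at 796, 618 and 736 CPM against 439, 518 and 417 CPM and fell 1.57-fold (-0.65 ± 0.16, adjusted p = 0.0421).

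The pump genes that did not pass were on both sides. DESeq2 called 22 members in males, and its share over all genes is not given here. Among those that edgeR did not call, atp6v1h and the cathepsin gene ctss1 were higher, and the pump genes atp6v0a1a, atp6v1d, atp6v1ba and atp6v0a2b were lower. The adjusted p-values that follow are those of edgeR. The H subunit gene atp6v1h, needed to switch the assembled pump on, had values above control in all exposed males (520.3, 520.3 and 628 CPM in controls, 857, 807 and 671 CPM at 40 µg/L) with a log2 fold change of 0.48 and an adjusted p of 0.0699. The D subunit gene atp6v1d, part of the central stalk, had a mean of 152 CPM against 243 CPM (-0.68, adjusted p = 0.0613). The a-subunit gene atp6v0a2b was at 15.4, 10.4 and 16.2 CPM in controls and 0.467, 0 and 1.21 CPM in exposed males, all 3 of the latter under the floor (adjusted p = 0.0778). The E subunit gene atp6v1e1b, of the outer stalks, had a log2 fold change of -0.27. The sum of the 19 subunits was 5106, 4297 and 4899 CPM in male controls and 3384, 3917 and 3179 CPM in exposed males. These sums did not overlap.

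Of 11 tested core ATG genes, 3 fell and 1 rose in exposed males. The fallen 3 all act in the conjugation of LC3 and GABARAP proteins to lipid. The E2-like enzyme gene atg3 was at 66.4, 48.1 and 56.9 CPM in male controls and 27.6, 16.7 and 16.1 CPM in exposed males, a 2.85-fold fall (-1.51 ± 0.29, adjusted p = 0.0197). In the E3-like complex, atg5 was at 57.6, 61.6 and 57.5 CPM against 12.9, 25.6 and 20.4 CPM, a 2.99-fold fall (-1.58 ± 0.29, adjusted p = 0.0184). The scaffold gene atg16l1 was at 28.0, 25.1 and 35.5 CPM against 6.85, 7.70 and 8.48 CPM, a 3.84-fold fall (-1.94 ± 0.30, adjusted p = 0.0119). In each of these genes the highest exposed library stood below the lowest control. For atg16l1 that library, replicate 3 at 8.48 CPM, lay under its own floor of 11.996 CPM.

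The gene that rose, atg101, encodes a partner of ATG13 in the ULK kinase complex. It was at 86.0, 87.6 and 116 CPM in male controls and 192, 147 and 183 CPM in exposed males, and it rose 1.80-fold (0.85 ± 0.18, adjusted p = 0.0285). The partner gene atg13 had a mean of 115 ± 13.7 CPM (SD, n = 3) in exposed males and 129 ± 8.24 CPM in controls, a log2 fold change of -0.17. The E2-like gene atg10, which acts on ATG12, had values above control in all exposed males (9.33, 11.4 and 10.7 CPM against 23.6, 21.4 and 13.9 CPM) with an adjusted p of 0.125.

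Of the 4 LC3 and GABARAP genes, whose proteins are the membrane-bound tags of the autophagosome, 3 fell in exposed males and none rose. The gene gabarapa was at 102, 55.3 and 88.9 CPM in controls and 9.46, 15.8 and 14.7 CPM in exposed males. It fell 6.17-fold (-2.63 ± 0.34, adjusted p = 0.00897), and it stood far below its controls in all 3 libraries. The gene map1lc3b was at 132, 66.5 and 71.4 CPM against 26.0, 28.3 and 42.0 CPM and fell 2.81-fold (-1.49 ± 0.35, adjusted p = 0.0352). The gene gabarapl2 fell 1.62-fold (-0.69 ± 0.16, adjusted p = 0.0328), from 156, 138 and 149 CPM to 80.2, 95.3 and 98.8 CPM. The gene map1lc3a had a mean of 104 CPM against 143 CPM and did not pass (-0.46, adjusted p = 0.115).

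The cargo receptor gene sqstm1, whose protein p62 links ubiquitin-tagged cargo to LC3, moved the other way. It was at 166, 191 and 203 CPM in male controls and 355, 245 and 328 CPM in exposed males, and it rose 1.66-fold (0.73 ± 0.18, adjusted p = 0.0381). The groups did not overlap.

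Of the lysosomal membrane glycoproteins, lamp2, which is needed for the fusion of autophagosomes with lysosomes, fell 2.98-fold (-1.58 ± 0.36, adjusted p = 0.0321). It was at 83.6, 42.6 and 50.2 CPM in male controls and 19.5, 25.6 and 14.1 CPM in exposed males. The genes lamp1a and lamp1b had log2 fold changes of -0.54 and -0.36 and did not pass. Of 14 cathepsins, the proteases of the lysosome, 1 fell: ctsf was at 444, 328 and 441 CPM in male controls and 204, 265 and 187 CPM in exposed males (1.85-fold, -0.89 ± 0.20, adjusted p = 0.0318). The other 13 had an adjusted p above 0.05. The cathepsin D gene ctsd had 155 ± 19.2 CPM in controls and 157 ± 5.57 CPM in exposed males, and the cathepsin L gene ctsla 303 ± 16.4 and 287 ± 70.6 CPM (SD, n = 3 each).

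Acid ceramidase, which splits ceramide in the lysosome, has a pair of genes in these tables. The gene asah1a was at 11.5, 5.94 and 3.47 CPM in male controls and at 0 in all 3 exposed males, and it was called lower (adjusted p = 0.0205). The floors of the exposed libraries, 4.55, 2.70 and 11.996 CPM, are about as high as these controls, so no fold is given. The gene asah1b had means of 27.1 CPM in controls and 26.7 CPM in exposed males, with a log2 fold change of -0.02.

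**Figure D2:**
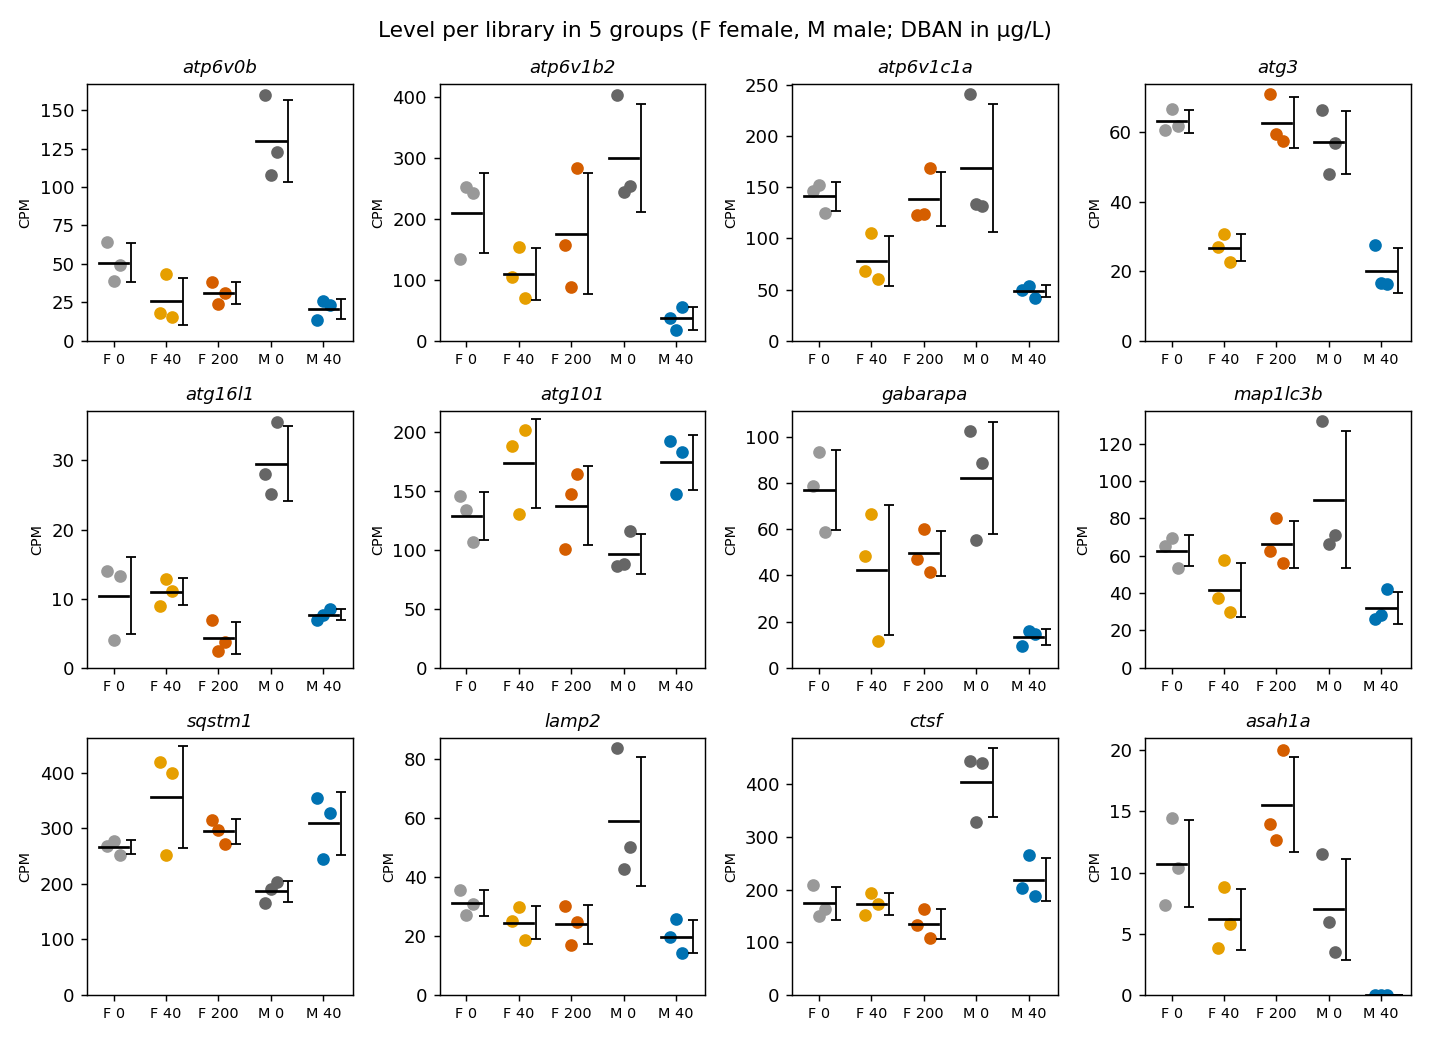
Each panel gives the CPM of a member per library (points) and the group mean (bar) in the 5 groups. In males at 40 µg/L atp6v0b, atp6v1b2 and gabarapa lie far below their controls, whereas atg101 and sqstm1 lie above theirs.

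Of the 54 members, 30 had no overlap between male controls and exposed males, 24 below and 6 above (55.6%), against 44.6% of all genes, 27.7% below and 17% above. All 3 exposed male libraries held fewer molecules than any male control, so exposure and library complexity cannot be told apart. With the complexity as a covariate, no member was called and no gene of the whole table. Leaving out 1 library at a time gave between 4 and 18 calls: 4 without male control replicate 1, 4 without control replicate 2, 5 without control replicate 3, and 10, 18 and 12 without exposed replicates 1, 2 and 3. The 4 genes atp6v0b, atp6v1b2, atp6v1c1a and gabarapa were called in all 6 of these. The rise of sqstm1 was called only without exposed replicate 2 among them, and that of atg101 only without exposed replicate 2 or control replicate 3. The shares of all genes called with 1 library left out are not given here.

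Cell type markers also moved in males, and their part in these results was not tested. In bulk RNA, fewer cells of a type and less RNA per cell cannot be told apart. The summed level of 23 microglia and macrophage markers was 642 to 731 CPM in male controls and 847 to 1436 CPM in exposed males, where c1qc, havcr1 and tyrobp were at 0. Of the 19 tested, 12 had a positive and 7 a negative log2 fold change, and lcp1 and cd74a rose and aif1l fell. In that microglia sum, cd74a alone had means of 279.1 CPM in controls and 640.1 CPM in exposed males, and lcp1 34.1 and 135.3 CPM. The sum of 12 radial glia markers was 4531 to 5445 CPM in controls and 3148 to 3668 CPM in exposed males, with cx43, slc1a2b and s100b lower. In that list sox2 had a log2 fold change of 0.69 and did not pass, and aqp4 was at 0 in exposed males and in all 3 female groups. Of the 9 oligodendrocyte markers, 5 had a positive and 4 a negative log2 fold change, with a median of 0.662. Among them the myelin gene mag fell, and the myelin gene mbpb had 0.66 and did not pass (edgeR adjusted p = 0.0569). The sum of 11 neuronal markers was 11724 to 12392 and 11343 to 12448 CPM. That sum overlapped, although gap43, nefma and nefmb rose and elavl3, syt1a and snap25a fell. The blood markers summed to 1593 to 9164 CPM in controls and 6887 to 14802 CPM in exposed males, with 5 log2 fold changes positive and 4 negative. Those of oligodendrocytes summed to 1218 to 1255 and 943 to 1566 CPM. Vessel markers summed to 193 to 281 and 333 to 685 CPM, within which tek alone had means of 145.4 and 392.9 CPM. Of the 10 vessel markers, 2 had a positive and 8 a negative log2 fold change, with a median of -0.557.

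In females at 40 µg/L, 1 of 55 members was called against control, atg3, and it fell (1.82% of members, against 0.238% of all genes, 0.143% lower). It was at 60.7, 66.8 and 61.8 CPM in female controls and at 26.9, 30.7 and 22.8 CPM at 40 µg/L, a 2.36-fold fall (-1.24 ± 0.21, edgeR adjusted p = 0.0467). The groups lay far apart, and replicate 2 at 40 µg/L, the library whose rare-gene median was 8, was also below every control. The call was lost when any 1 female control, replicate 1 or 3 at 40 µg/L, or replicate 1 or 3 at 200 µg/L was left out. The log2 fold change was -1.34 to -1.12 over all 9 fits that each left out 1 library. Without replicate 2 at 40 µg/L, 3 members were called lower, atg3, atp6v0b and atp6v1c1a. In that comparison 10 members had no overlap between the groups, 4 above and 6 below (18.2%), against 25% of all genes, 11.3% above and 13.7% below. The median log2 fold change was -0.19 over the members and -0.03 over all genes. With the complexity as a covariate these medians were -0.035 and -0.006. With replicate 2 alone at 40 µg/L, chosen after seeing the data, they were -0.072 and -0.075. Replicates 1 and 3 at 40 µg/L had rare-gene medians of 28 and 35, against 8 to 11 in female controls, but were also deeper than any of these. Exposure, depth and complexity therefore partly coincide here.

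The pump genes nearest to a call in females at 40 µg/L were lower, but none passed by edgeR. DESeq2 called atg3, atp6v1c1a and atp6v1f lower. The adjusted p-values given next are those of edgeR. The gene atp6v1c1a was at 146, 152 and 125 CPM in controls and 68.3, 105 and 60.1 CPM (-0.86 ± 0.24, adjusted p = 0.127), with no overlap. The F subunit gene atp6v1f, part of the central stalk, had 373, 302 and 289.9 CPM against 199, 247 and 188 CPM (-0.61, adjusted p = 0.140). Next came atp6v1d (-0.49, adjusted p = 0.244), atp6v0b (-0.98, adjusted p = 0.257) and atp6v0cb (-0.70, adjusted p = 0.284). The sqstm1 gene was at 419.9, 252 and 399.9 CPM at 40 µg/L and at 268, 278 and 253 CPM in controls. Replicates 1 and 3 stood above the controls and replicate 2 did not. The summed microglia markers were at 620 to 841 CPM in female controls and 726 to 1045 CPM at 40 µg/L, those of blood vessels at 180.5 to 260.5 and 344 to 546 CPM, and those of oligodendrocytes at 906 to 1209.7 and 589 to 787 CPM. Among 21 tested microglia markers, 8 had a positive and 13 a negative log2 fold change, with a median of -0.332. In the microglia sum, cd74a alone had means of 318.2 CPM in controls and 441.3 CPM at 40 µg/L. Within the vessel sum, tek alone had means of 145.1 and 399.7 CPM. Of the 10 vessel markers, 8 had a positive and 2 a negative log2 fold change, with a median of 0.215. Blood markers summed to 1293 to 2874 CPM in controls and to 2685 to 19438 CPM at 40 µg/L, and all 9 had a positive log2 fold change, with 0 called by edgeR (1 had an unadjusted p under 0.05). The part of these markers was not tested.

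Female replicate 2 at 40 µg/L differed from its partners in many members. It was the highest of the 3 in 36 of 55 members and the lowest in 10. In atp6v0b it was at 43.3 CPM beside 18.2 and 15.3 CPM, within the range of the controls (38.7 to 64.0 CPM). In gabarapa it was at 66.8 CPM beside 48.3 and 11.7 CPM. In atg5 it was at 70.4 CPM beside 9.06 and 13.5 CPM, while a control library was at 10.3 CPM, so that low values of this gene occurred in both groups. For ctsba, a cathepsin B gene, replicates 1, 2 and 3 had 192, 6.20 and 181 CPM. The rare-gene medians of replicates 1, 2 and 3 were 28, 8 and 35. In replicate 2, the lowest of these, ctsba was lowest and atp6v0b, gabarapa and atg5 were highest. A fit with complexity as a covariate called no member at 40 µg/L against control, and the part of complexity was not tested further.

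In females at 200 µg/L, 0 of 55 members were called against control by edgeR (0.0556% of all genes were), 5 had an unadjusted p under 0.05, and DESeq2 called 0. The gene with the smallest p was atp6v0e1, a small V0 subunit, at 15.5, 7.75 and 17.0 CPM in controls and 52.9, 28.0 and 18.7 CPM at 200 µg/L (1.31, adjusted p = 0.310). Next came atg9a, which encodes the lipid scramblase of the growing membrane (-0.68, adjusted p = 0.376), ctsla (0.39, adjusted p = 0.376), ctsk (1.43, adjusted p = 0.455) and ctsh (0.86, adjusted p = 0.457). The atg16l1 gene had -1.26 and an adjusted p of 0.467, with replicate 2 at 2.34 CPM, under its floor of 4.78 CPM. Of the members, 9 had no overlap, 5 above and 4 below (16.4%), against 17.9% of all genes, 7.48% above and 10.4% below. The median log2 fold change was -0.02, beside 0.00 over all genes. Replicate 2 at 200 µg/L had a rare-gene median of 17 and 3945 genes at 0, against 8 to 11 and 2046 to 2558 in female controls. The part of its complexity was not tested.

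Of 14 cathepsins, 10 had a positive log2 fold change at 200 µg/L, with a median of 0.71, and 0 were called. Over all genes 49.8% had a negative one. Among the 10 were ctsll and ctsbb, which lay under the floor in every female control. There ctsll was at 0.410, 0.896 and 0.530 CPM and ctsbb at 0.911, 1.11 and 0.571 CPM, with floors of 1.09, 1.74 and 0.978 CPM. Of the 5 groups, both had their highest mean at 200 µg/L, ctsll at 4.34 CPM and ctsbb at 2.54 CPM. In no other group did the mean of ctsbb reach 1 CPM, so the limit for members favoured its positive sign. The count of 10 and the median include both genes. The values of ctsla were 461, 416 and 481 CPM against 342, 375 and 321 CPM in controls, without overlap. Those of ctsh were 24.1, 20.4 and 19.1 CPM against 17.7, 8.80 and 8.60 CPM, again without overlap. In ctsk, replicate 2 was at 4.13 CPM, under its floor of 4.78 CPM, replicate 3 at 10.1 CPM and replicate 1 at 27.7 CPM. The microglia marker sum was 1657 CPM in that replicate and 781 and 771 CPM in the others, against 620 to 841 CPM in controls. In the same replicate the blood sum was 17953 CPM beside 1599.7 and 2265 CPM, and the oligodendrocyte sum 1447 CPM beside 730.1 and 764 CPM. The vessel sum was 389 to 536 CPM at 200 µg/L and 180.5 to 260.5 CPM in controls. Within it, tek alone had means of 388.6 and 145.1 CPM. Of the 10 vessel markers, 5 had a positive and 5 a negative log2 fold change, with a median of 0.028. The part of these markers was not tested.

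Between the doses, 1 of 55 members was called (3.93% of all genes were, 1.87% higher). The atg3 gene was higher at 200 than at 40 µg/L, 71.1, 59.5 and 57.5 CPM against 26.9, 30.7 and 22.8 CPM (2.35-fold, 1.23 ± 0.21, edgeR adjusted p = 0.0187). This comparison and that of 40 µg/L with control share the libraries at 40 µg/L, and the values at 200 µg/L overlap those of the female controls. The call was lost without replicate 1 or 3 at 40 µg/L or replicate 3 at 200 µg/L. Without replicate 2 at 40 µg/L 3 members were called higher (atg3, atp6v1c1a and atg4b), and without replicate 2 at 200 µg/L 2 were (atg3 and atp6v0cb). No overlap was seen in 14 members, 8 above and 6 below (25.5%), against 25.3% of all genes, 11.9% above and 13.4% below. Members next in order, none called by edgeR, were atp6v1c1a (0.84, adjusted p = 0.0805), ctsh (1.35, adjusted p = 0.0822), atp6v0ca (-0.55, adjusted p = 0.0992), atp6v0cb (0.93, adjusted p = 0.104) and asah1a (1.34, adjusted p = 0.118). DESeq2 called each of them in the same direction, and also called atg3 and atg4b higher.

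**Figure D3:**
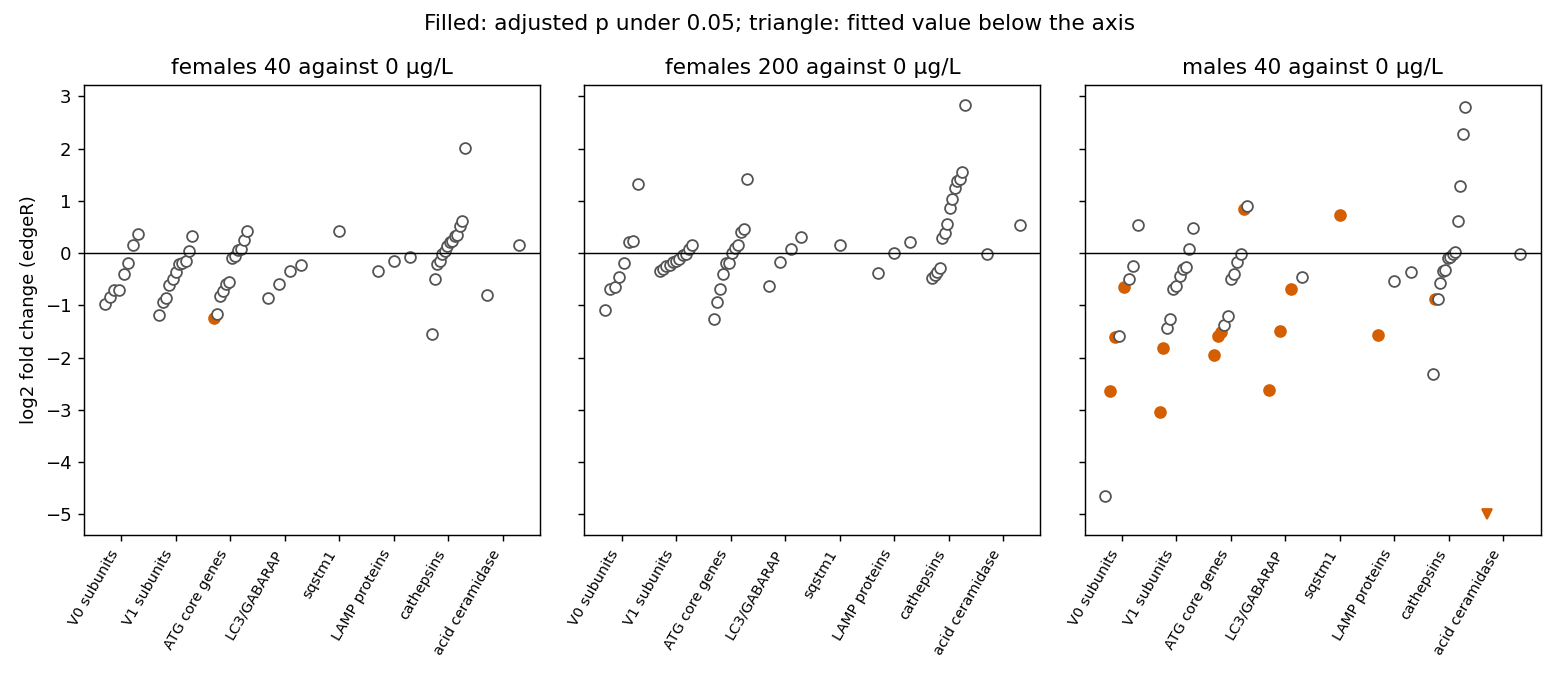
Log2 fold changes of the members (points) by role in 3 comparisons, filled where adjusted p is under 0.05. Filled points number 16 in males, of which the triangle is asah1a, 1 in females at 40 µg/L and 0 at 200 µg/L.

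The effect of 40 µg/L differed between the sexes for 0 of 55 members, and for 0% of the 13149 genes tested, by the edgeR interaction test. An unadjusted p under 0.05 was found for 11 members, and DESeq2 called 2, asah1a and atp6v1b2. The smallest adjusted p was 0.0888, for asah1a, which was called without exposed male replicate 2 or 3. Next came atp6v1b2 with a male minus female difference of -2.09 ± 0.58 in log2 fold change (adjusted p = 0.179), atg16l1 with -2.01 ± 0.61 (0.188), ctsf with -0.87 ± 0.27 (0.198), atp6v0a1b with -1.43 ± 0.45 (0.201) and atp6v0b with -1.66 ± 0.54 (0.210). Each of these has a more negative value in males. A call in males and none in females is therefore not shown to be a difference between them.

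The female and male comparisons at 40 µg/L share no library. Log2 fold changes of both comparisons had the same sign in 42 of 54 members (77.8%) and in 67.9% of 12129 genes. Rare-gene medians were 39, 40.5 and 132 in exposed males and 28, 8 and 35 in females at 40 µg/L. In controls they were 8 to 11 in females and 8 to 9 in males. The part of this complexity in the shared signs was not tested. Of the 16 members called in males, 15 had the same sign in females (93.8%), against 89.7% of the 1935 genes called in males. The exception was atg16l1, at 14.0, 4.01 and 13.3 CPM in female controls and 8.98, 12.9 and 11.03 CPM at 40 µg/L.

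**Figure D4:**
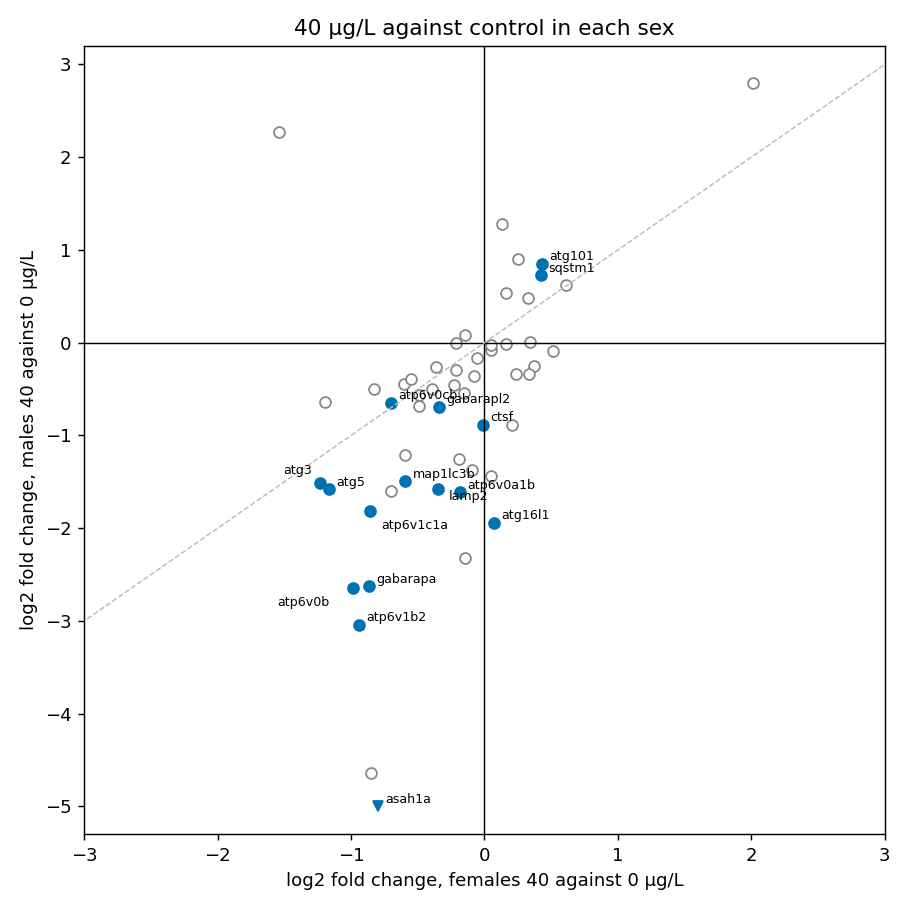
Each point is a member, with its log2 fold change at 40 µg/L in females on the x axis and in males on the y axis. Filled points were called in males, and the triangle is asah1a, whose fitted value lies below the axis. Most filled points lie in the lower left, with atg101 and sqstm1 at the upper right.

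Control fish differed by sex in 3 members, all higher in males (5.45% of members, against 4.4% of all genes, 2.09% higher). The ctsf gene was at 444, 328 and 441 CPM in male and 209, 149 and 163 CPM in female controls (2.32-fold, 1.21 ± 0.20, edgeR adjusted p = 0.0138). The atp6v0a1b gene was at 358, 235 and 283 CPM against 111, 69.5 and 105 CPM (3.06-fold, 1.61 ± 0.33, adjusted p = 0.0219), and atp6v0ca, another c-subunit gene, at 945, 840.4 and 1038 CPM against 579.9, 593 and 431 CPM (1.76-fold, 0.81 ± 0.16, adjusted p = 0.0219). No call remained without female control replicate 2 or male control replicate 1 or 2, and 1 without female control replicate 3 or male control replicate 3. In ctsf and atp6v0a1b the exposed males, at 204, 265 and 187 CPM and at 57.3, 123 and 105 CPM, stood below their own controls. Members that did not pass by edgeR were atp6v0b (1.36, adjusted p = 0.0631), atg16l1 (1.495, 0.0681), lamp2 (0.91, 0.110) and sqstm1 (-0.51, 0.166). Of these, DESeq2 called atp6v0b, atg16l1 and lamp2 higher in males. No overlap between the sexes was seen in 20 members, 14 above and 6 below (36.4%), against 39.9% of all genes, 21% above and 18.9% below. Depth was 18365050 to 22630829 counts in female and 35666401 to 42122528 in male controls. Markers of other cells differed as well. The glial genes slc1a2b, cx43 and slc1a3b and the neuronal genes stmn2b and eno2 were called higher in males and elavl4 lower. Blood sums were 1593 to 9164 CPM in male and 1293 to 2874 CPM in female controls. The part of depth and of these markers was not tested.

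The c subunit of V0 has a pair of paralogues, atp6v0ca and atp6v0cb. The pair was chosen after its values were seen, so its ratio is given with no test. The ratio of atp6v0ca to atp6v0cb counts in a library was 0.739, 0.907 and 0.693 in female controls and 1.54, 1.58 and 1.80 in females at 40 µg/L. All 3 libraries at 40 µg/L, replicate 2 with them, stood above the controls. At 200 µg/L it was 0.531, 1.02 and 0.465. In males it was 1.19, 1.36 and 1.41 in controls and 1.63, 1.72 and 1.84 at 40 µg/L. Reads could be split between such similar copies, and this was not tested.

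**Figure D5:**
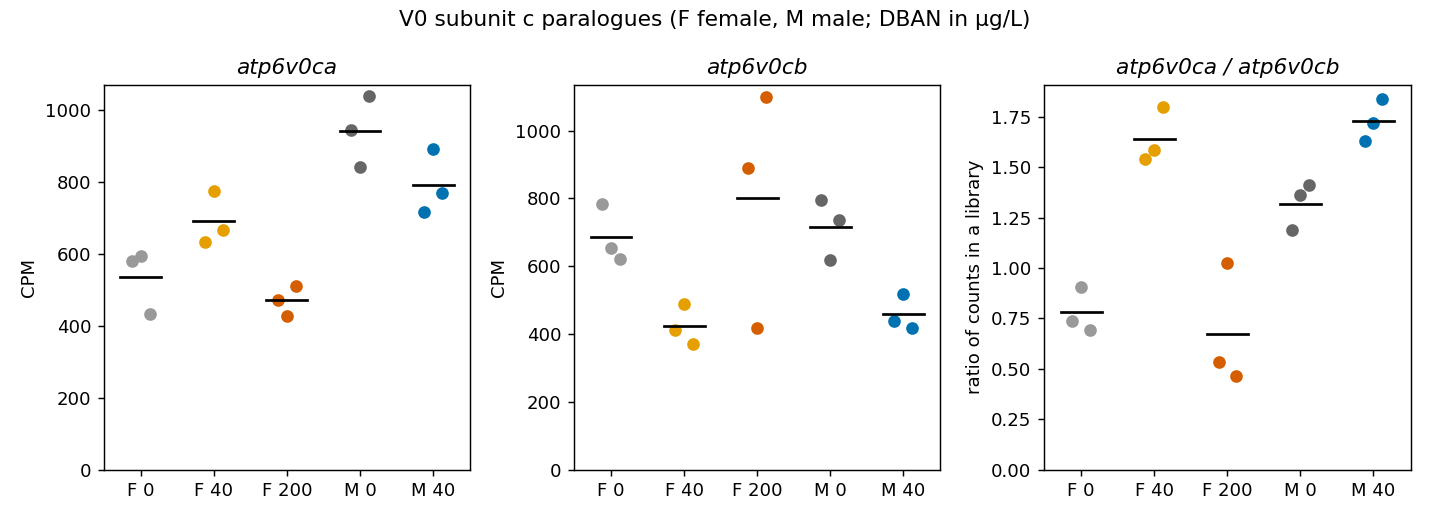
CPM of atp6v0ca and of atp6v0cb, and their ratio, per library (points) with the group mean (bar). The ratio is 1.54 to 1.84 in the 6 libraries at 40 µg/L, and the controls of both sexes lie below.

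The members varied within groups about as much as other genes: the median within-group SD of log2 values was 0.46 over the 55 members and 0.49 over 11598 genes at a mean of 1 CPM or more. The most even were atg13 (SD 0.13), atp6v1h (0.17), atp6v0ca (0.18) and ctsla (0.18). The least even were atg12 (2.09, at 0 in 6 libraries), ctsba (1.28), ctsll (1.27) and atg5 (1.25). The tables list atp6v1b2 and atp6v1g1 on an alternative contig only and 6 other members on such a contig as well as a chromosome, among them atg12 and ctsll. How the reads were shared between these copies was not stated in the labels.

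Other genes of the pathway, from lists chosen with earlier results known, were counted the same way in males at 40 µg/L. Over the 7 lists 22 of 155 tested genes were called (14.2%), against 15.6% of all genes, so that their share was near that of the whole table. Of 20 genes for fusion of autophagosome and lysosome 5 fell and none rose, with a median log2 fold change of -1.10, or -0.96 with arl8bb, at 0 in all exposed males, set to no change. They were the lysosome-positioning GTPase genes arl8a (-1.10 ± 0.16, adjusted p = 0.0104), arl8ba (-1.15, 0.0352) and arl8bb, the tethering gene vps39 (-1.71, 0.0140) and rab2a (-0.83, 0.0239). Of 35 genes for lysosomal membrane proteins and trafficking 4 fell and none rose: laptm4a (-1.95 ± 0.25, 0.00897), sort1b (-1.18, 0.0127), the chloride and proton exchanger clcn7 (-1.26, 0.0341) and the sialic acid exporter slc17a5 (adjusted p = 0.0484). The last was at 1.71, 1.96 and 3.15 CPM in exposed males, under the floor in all 3, so its fold is not given. Of 7 accessory genes of the pump, atp6ap2 fell (-0.77, 0.0289).

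Of 35 hydrolase genes 4 were called in males (11.4%) and 31 were not. The genes naga, an alpha-N-acetylgalactosaminidase, and sgsh, a sulfohydrolase of heparan sulfate, rose (1.40 ± 0.20, adjusted p = 0.0111, and 1.99 ± 0.38, 0.0199). The thioesterase gene ppt1 and the protease gene lgmn fell (-1.09, 0.0221, and -1.33, 0.0258). Values of naga were 21.9, 25.1 and 26.8 CPM in male controls and 71.98, 55.4 and 66.9 CPM in exposed males. They were 45.6, 57.5 and 43.5 CPM in female controls, so the controls of the sexes differed in this gene as well (-0.99 male minus female, adjusted p = 0.0283). The same held for sgsh (-1.32, adjusted p = 0.0477), at 46.5, 70.2 and 85.5 CPM in female and 20.8, 30.3 and 29.9 CPM in male controls and 166, 62.5 and 92.5 CPM in exposed males.

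Of 14 initiation genes in males, the PI3-kinase complex genes nrbf2b (1.06, adjusted p = 0.0156) and pik3c3 (0.99, 0.0341) rose, and ambra1b, a scaffold of that complex, fell (-1.79, 0.0232). In exposed male replicate 3, ambra1b was at 6.51 CPM, under the floor of 11.996 CPM. Male controls were below female controls in pik3c3 (-0.94, adjusted p = 0.0340). Of 20 receptor genes 2 were called (10%): the kinase gene tbk1 rose (0.60, 0.0381) and the mitophagy receptor fundc1 fell (-1.11, 0.0176). Of 24 genes around TFEB and mTORC1 3 were called (12.5%): tsc2 (1.02, 0.0113) and nprl3 (0.89, 0.0405) rose and sesn1 fell (-1.18, 0.0408). Male controls were below female controls in nprl3 too (-1.06, adjusted p = 0.0369). In females, 0 genes of these 7 lists were called at 40 or at 200 µg/L against control by edgeR. An unadjusted p under 0.05 was reached by 21 of 153 genes at 40 µg/L (13.7%, against 15.3% of all genes), 12 of them in the membrane and trafficking list of 34. At 200 µg/L it was reached by 13 (8.5%, against 10.8% of all genes). The smallest at 200 µg/L were those of dmxl2 (-0.74, adjusted p = 0.232) and sort1b (-0.68, adjusted p = 0.287). The sex difference of the 40 µg/L effect had 0 calls in these lists by edgeR and 24 of 156 genes at an unadjusted p under 0.05 (15.4%, against 14.5% of all genes), with sgsh (1.97, adjusted p = 0.179) and naga (1.08, adjusted p = 0.179) first.

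Between the female doses, 4 of 153 genes of these lists were called (2.61%), against 3.93% of all genes. The late endosome GTPase gene rab7a was at 33.5, 21.9 and 21.2 CPM in female controls, 5.71, 6.93 and 5.12 CPM at 40 µg/L and 42.4, 19.2 and 51.0 CPM at 200 µg/L. It was higher at 200 than at 40 µg/L (2.67 ± 0.40, adjusted p = 0.0133), while its difference between 40 µg/L and control did not pass (-2.11, adjusted p = 0.0505), nor did that of lamtor3 (-1.49, adjusted p = 0.0518). The Ragulator gene lamtor3 (2.21 ± 0.30, 0.0127) and becn1, the core of the initiation PI3-kinase complex (1.02, 0.0367), were also higher, and dmxl2, a pump assembly gene, was lower (-0.94, 0.0366). Of the cell type markers, eno2, gap43 and sox2 were lower and fabp7a and s100b higher at 200 than at 40 µg/L, and their part was not tested.

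Between the controls of the sexes, 10 of 156 genes of these lists were called (6.41%), against 4.4% of all genes. Besides naga, sgsh, pik3c3 and nprl3, the lower ones in males were gnptg (-1.50), a subunit of the enzyme that tags lysosomal proteins, and oxr1b (-1.18). Higher in males were the mitophagy genes phb2a (0.68), bnip3 (1.57) and pink1 (1.27), and dmxl2 (0.71).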

How the data were processed

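Brain poly(A) RNA libraries of 15 zebrafish samples were analysed. The deposited values are raw counts per gene and library, as the file values show. Per the submitters' processing notes the tools were STAR, StringTie, Picard, FastQC and DESeq2, with no role or order given. The genome build was not stated there or in the labels. Counts up to 40 pile up at multiples of 4 (40.5 to 49.6% per library, against 25% if even), so 1 fragment may be worth about 4 counts and the precision is lower than the totals show. Floors cover counting error only.

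Groups were taken from the labels. Genes were filtered with filterByExpr, scaled with TMM factors and tested with the robust quasi-likelihood F test of edgeR 4.0.16 in R 4.3.3, with Benjamini-Hochberg adjustment over all tested genes and calls at an adjusted p under 0.05. Females (9 libraries), males (6) and a joined set (12, for the sex comparisons) were fitted apart, with common biological coefficients of variation of 0.650, 0.769 and 0.739. SE is the log2 fold change divided by the square root of F. Alternatives were DESeq2 1.42.0, other scaling, no filter, non-robust dispersion, counts divided by 4, a complexity covariate, fits of 2 groups, the replicate block and each library left out. The fits were also run on simulated negative binomial counts. These held neither the low complexity of some libraries nor the multiples of 4, so that run cannot speak to either. Replicate numbers did not pair the samples. Replicates of a group differed by more than sampling noise.

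The members, role classes and lists were chosen with earlier results of these data known. Named were called members, the 6 with the smallest p in each comparison, the 2 most abundant members of a class, and called genes of other pathway lists (the 2 with the smallest p where none was called), with other members given as examples chosen after their values were seen. All 55 member symbols are in the RefSeq gene table. Gene and promoter sequences were not used here.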

Additional observations from a re-analysis of the deposited data

How the results depend on the processing

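The counts of members called (main value in brackets) depended on the settings as follows. For females at 40 µg/L against control (1) DESeq2 gave 3, and non-robust dispersion, the replicate block, the complexity covariate, a fit of only the 2 groups and replicate 2 alone at 40 µg/L (chosen after seeing the data) gave 0. Between the female doses (1) DESeq2 gave 7, and the block, the covariate and only the 2 groups gave 0. In males (16) DESeq2 gave 22, the replicate block gave 7, all lower and all among the 16, and the covariate gave 0, with a median log2 fold change of -0.21 where all genes then had 0.44. For the sex difference (0) DESeq2 gave 2, and the covariate turned the median from -0.26 to 0.05. For the controls (3) DESeq2 gave 6. The cause was not tested, beyond the added term or smaller sample of those fits. For DESeq2 and for the fits with 1 library left out, the share of all genes called is not given. Those counts are therefore not read as results about the members.

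Leaving out 1 library at a time gave 0 to 3 calls and medians of -0.34 to -0.09 in females at 40 µg/L, 0 to 0 and -0.10 to 0.05 at 200 µg/L, 0 to 3 and 0.13 to 0.39 between the doses, 4 to 18 and -0.63 to -0.42 in males, 0 to 1 and -0.37 to -0.16 for the sex difference, and 0 to 4 and 0.12 to 0.28 for the controls. Replicate numbers did not pair the samples: 1 of 30 same-number pairs had a correlation of deviations over 0.1, and 5 of 15 libraries correlated best with their own number. Of 352 values of named members under the other settings, 306 kept direction and side of the threshold, 34 lost a call, 12 gained one and 0 changed direction. Of 402 such values with 1 library left out, 323 kept both, 71 lost a call, 8 gained one and 0 changed direction. The 352 and 402 values include results not called in the main fit, which have no call to lose. They therefore do not give the share of calls that were kept.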
